A study of Mus musculus with 8 samples.

Results

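Mast cell genes were followed in sciatic nerve, the mixed nerve of the hind limb, through 7 transcripts: Mcpt4, Cma1, Cpa3, Tpsb2, Ms4a2, Fcer1a and Kit. They were taken by symbol from a table of 23356 genes, with no filter on level, and each of the 7 had a value above 0 in all 8 libraries. The nerves came from F1 mice of C57BL/6 and FVB/N at postnatal day 30. There were 2 libraries of each of 4 genotypes: Q215X/+, HA-NRG1 type III/+, HA-NRG1 type III/+:Q215X/+ and wild type (WT). Q215X/+ is a heterozygous mutation of P0, the main adhesion protein of peripheral myelin. HA-NRG1 type III/+ mice carry a transgene that encodes type III neuregulin 1, the axonal signal for Schwann cell myelination, with an HA tag as its name has it. HA-NRG1 type III/+:Q215X/+ mice carry both, and the sources used here do not give the transgene's promoter. The 4 libraries with the transgene are called carriers below, and the 4 of WT and Q215X/+ non-carriers. The column names ended in 0 or 1 for each genotype, called set 0 and set 1 here. No label states whether both libraries of a genotype came from different mice. Those of HA-NRG1 type III/+ did, since they read as a male and a female, as given below. For the other genotypes this is unknown. The p-values therefore reflect the spread from library to library, and in those genotypes that spread may be technical.

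Mast cells are long-lived immune cells that mature inside tissues, in nerve mainly in the connective tissue sheaths around and between the fascicles. Their granules store proteases, histamine and heparin, which are released when an antigen bridges IgE on the high-affinity IgE receptor. Kit, the receptor for stem cell factor, keeps mast cells alive, and the GATA family of transcription factors drives many of their genes. The 7 genes cover these roles. Mcpt4 and Cma1 encode chymases, Cpa3 encodes carboxypeptidase A and Tpsb2 encodes a tryptase, all stored in granules. Fcer1a encodes the chain of the receptor that binds IgE, and Ms4a2 encodes its signal-amplifying beta chain. Kit is also made by melanocytes and some other cells, so it marks mast cells less strictly than the others.

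In the RefSeq annotation of GRCm38.p6, the assembly called mm10 in the submitters' processing notes, Mcpt4 lies on chromosome 14 from 56059744 to 56062310. Cma1 lies in the same protease cluster on chromosome 14, from 55941451 to 55944675. Cpa3 spans 20215616 to 20242209 on chromosome 3, and Tpsb2 spans 25366308 to 25368096 on chromosome 17. A close tryptase copy, Tpsab1, lies beside Tpsb2 at 25343245 to 25345562, and the sources used here do not say how reads shared between such copies were assigned. The values of Tpsb2, Tpsab1 and the chymases are therefore uncertain to that extent. Ms4a2 spans 11615517 to 11623790 on chromosome 19, Fcer1a 173221269 to 173227232 on chromosome 1, and Kit 75574987 to 75656722 on chromosome 5.

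The upstream sequences of 5 genes are shown because the granule genes varied together across the libraries and Kit did not vary with them. RefSeq promoter windows on GRCm38.p6 matched 6 of the 7 genes by symbol, all but Tpsb2. Each window is the 250 bases before the transcript start that the RefSeq promoter table uses, printed 5′ to 3′ on the gene's own strand, from the reference genome and not from these mice. Capitals mark 2 motifs searched on both strands: the GATA motif, which is NGATAN with its first N an A or T and its last an A or G, and TATAAA. For 3 genes that start lies inside the gene span given above, so their windows overlap the span, by 71 bases for Ms4a2, 28 for Cpa3 and 3 for Fcer1a. The motifs can share end bases, and no matches did so in these windows. The windows are chr14:56062311-56062560 (minus strand) for Mcpt4, chr14:55944676-55944925 (minus strand) for Cma1, chr3:20242182-20242431 (minus strand) for Cpa3, chr19:11623720-11623969 (minus strand) for Ms4a2 and chr5:75574737-75574986 (plus strand) for Kit.
Mcpt4: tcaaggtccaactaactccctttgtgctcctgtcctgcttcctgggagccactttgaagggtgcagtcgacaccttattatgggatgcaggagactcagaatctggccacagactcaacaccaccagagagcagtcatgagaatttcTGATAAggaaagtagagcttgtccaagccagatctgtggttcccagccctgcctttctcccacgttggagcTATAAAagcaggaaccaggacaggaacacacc
Cma1: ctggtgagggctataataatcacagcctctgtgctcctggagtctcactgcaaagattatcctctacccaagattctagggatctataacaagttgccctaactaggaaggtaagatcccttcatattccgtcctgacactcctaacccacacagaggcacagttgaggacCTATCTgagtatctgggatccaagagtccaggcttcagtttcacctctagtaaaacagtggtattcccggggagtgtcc
Cpa3: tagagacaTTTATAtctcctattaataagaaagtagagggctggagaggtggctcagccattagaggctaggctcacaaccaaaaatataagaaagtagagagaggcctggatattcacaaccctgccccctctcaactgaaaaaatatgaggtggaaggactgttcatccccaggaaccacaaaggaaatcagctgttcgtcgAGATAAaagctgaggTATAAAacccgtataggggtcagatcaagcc
Ms4a2: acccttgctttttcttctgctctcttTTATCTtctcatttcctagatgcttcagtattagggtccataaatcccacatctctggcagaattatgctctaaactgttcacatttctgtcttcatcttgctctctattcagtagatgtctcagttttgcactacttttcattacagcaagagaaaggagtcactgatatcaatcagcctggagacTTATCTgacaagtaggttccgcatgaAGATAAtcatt
Kit: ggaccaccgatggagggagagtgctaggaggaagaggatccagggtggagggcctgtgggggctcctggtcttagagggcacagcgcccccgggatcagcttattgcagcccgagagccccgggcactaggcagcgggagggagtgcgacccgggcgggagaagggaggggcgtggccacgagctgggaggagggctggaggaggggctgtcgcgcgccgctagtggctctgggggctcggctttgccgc

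The Mcpt4 window held a GATA match from position -103 to -98, counted back from the start, and TATAAA from -32 to -27. Cpa3 had a GATA match from -46 to -41 and TATAAA from -31 to -26, and a second TATAAA on the opposite strand from -242 to -237. Cma1 had 1 GATA match on the opposite strand, from -79 to -74, and no TATAAA. Ms4a2 had 3 GATA matches, 2 of them on the opposite strand, the nearest from -11 to -6. The Fcer1a window, not printed, had 1 GATA match and 1 TATAAA. Kit had neither motif in these letters, and 70.8% of its bases were G or C, against 38.8% to 51.2% in the other 5 windows and a median of 52.4% over all windows. Of 32851 such windows of 27025 genes, 26.5% held a GATA match and 12.4% held TATAAA. A match is a string of letters, and nothing in these libraries measured binding at it.

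The 4 granule protease genes were the abundant members and Kit, Fcer1a and Ms4a2 the scarce ones. FPKM is scaled to gene length, so levels can be set side by side. Averaged over the 8 libraries, Mcpt4 was at 11.0 FPKM, Cma1 at 9.55, Tpsb2 at 8.71 and Cpa3 at 8.42. Kit averaged 1.08 FPKM, Fcer1a 0.326 and Ms4a2 0.174. The IgE receptor genes were thus far below the proteases that the same cell type stores, and at these levels a value can rest on few fragments. Counts were not analysed here, so the depth behind each value is unknown and no counting interval can be given.

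Values are given for set 0 and then set 1. The chymase gene Mcpt4 read 10.3 and 21.6 FPKM in HA-NRG1 type III/+, 14.3 and 9.10 in HA-NRG1 type III/+:Q215X/+, 8.52 and 9.14 in WT, and 4.43 and 10.9 in Q215X/+. Set 1 of HA-NRG1 type III/+ stood highest and the Q215X/+ library of set 0 lowest, and carriers overlapped with non-carriers. Cma1, the other chymase, read 8.02 and 19.8 FPKM in HA-NRG1 type III/+, 9.47 and 8.73 in HA-NRG1 type III/+:Q215X/+, 7.97 and 8.28 in WT, and 4.09 and 10.1 in Q215X/+. The same libraries were highest and lowest, and its set 0 library of HA-NRG1 type III/+ lay between the WT libraries. Cpa3, the carboxypeptidase that trims peptides after the chymases have cut them, read 8.69 and 16.7 FPKM in HA-NRG1 type III/+, 9.51 and 7.98 in HA-NRG1 type III/+:Q215X/+, 6.19 and 7.23 in WT, and 3.32 and 7.76 in Q215X/+. All 4 carriers of the transgene were above all 4 non-carriers for Cpa3, by a narrow margin of 7.98 against 7.76 FPKM. The tryptase gene Tpsb2 read 8.74 and 17.3 FPKM in HA-NRG1 type III/+, 9.72 and 6.50 in HA-NRG1 type III/+:Q215X/+, 7.52 and 8.25 in WT, and 3.53 and 8.11 in Q215X/+. Its HA-NRG1 type III/+:Q215X/+ library of set 1 lay below both WT libraries.

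Ms4a2, the receptor's beta chain, read 0.199 and 0.422 FPKM in HA-NRG1 type III/+, 0.316 and 0.159 in HA-NRG1 type III/+:Q215X/+, 0.0991 and 0.107 in WT, and 0.0311 and 0.0566 in Q215X/+. Carriers did not overlap with non-carriers, and the range from lowest to highest library was 13.6-fold, the widest of the 7 genes. Fcer1a, the IgE-binding chain, read 0.348 and 0.530 FPKM in HA-NRG1 type III/+, 0.537 and 0.252 in HA-NRG1 type III/+:Q215X/+, 0.208 and 0.289 in WT, and 0.243 and 0.201 in Q215X/+. Here the HA-NRG1 type III/+:Q215X/+ library of set 1 lay between the WT libraries. Kit read 0.690 and 0.943882 FPKM in HA-NRG1 type III/+, 0.739 and 0.611 in HA-NRG1 type III/+:Q215X/+, 0.94401 and 1.52 in WT, and 1.06 and 2.13 in Q215X/+. Kit carriers all lay below the non-carriers, but the separation rests on 0.943882 against 0.94401 FPKM. In bulk tissue, fewer cells of a type and less RNA per cell cannot be told apart.

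**Figure D1:**
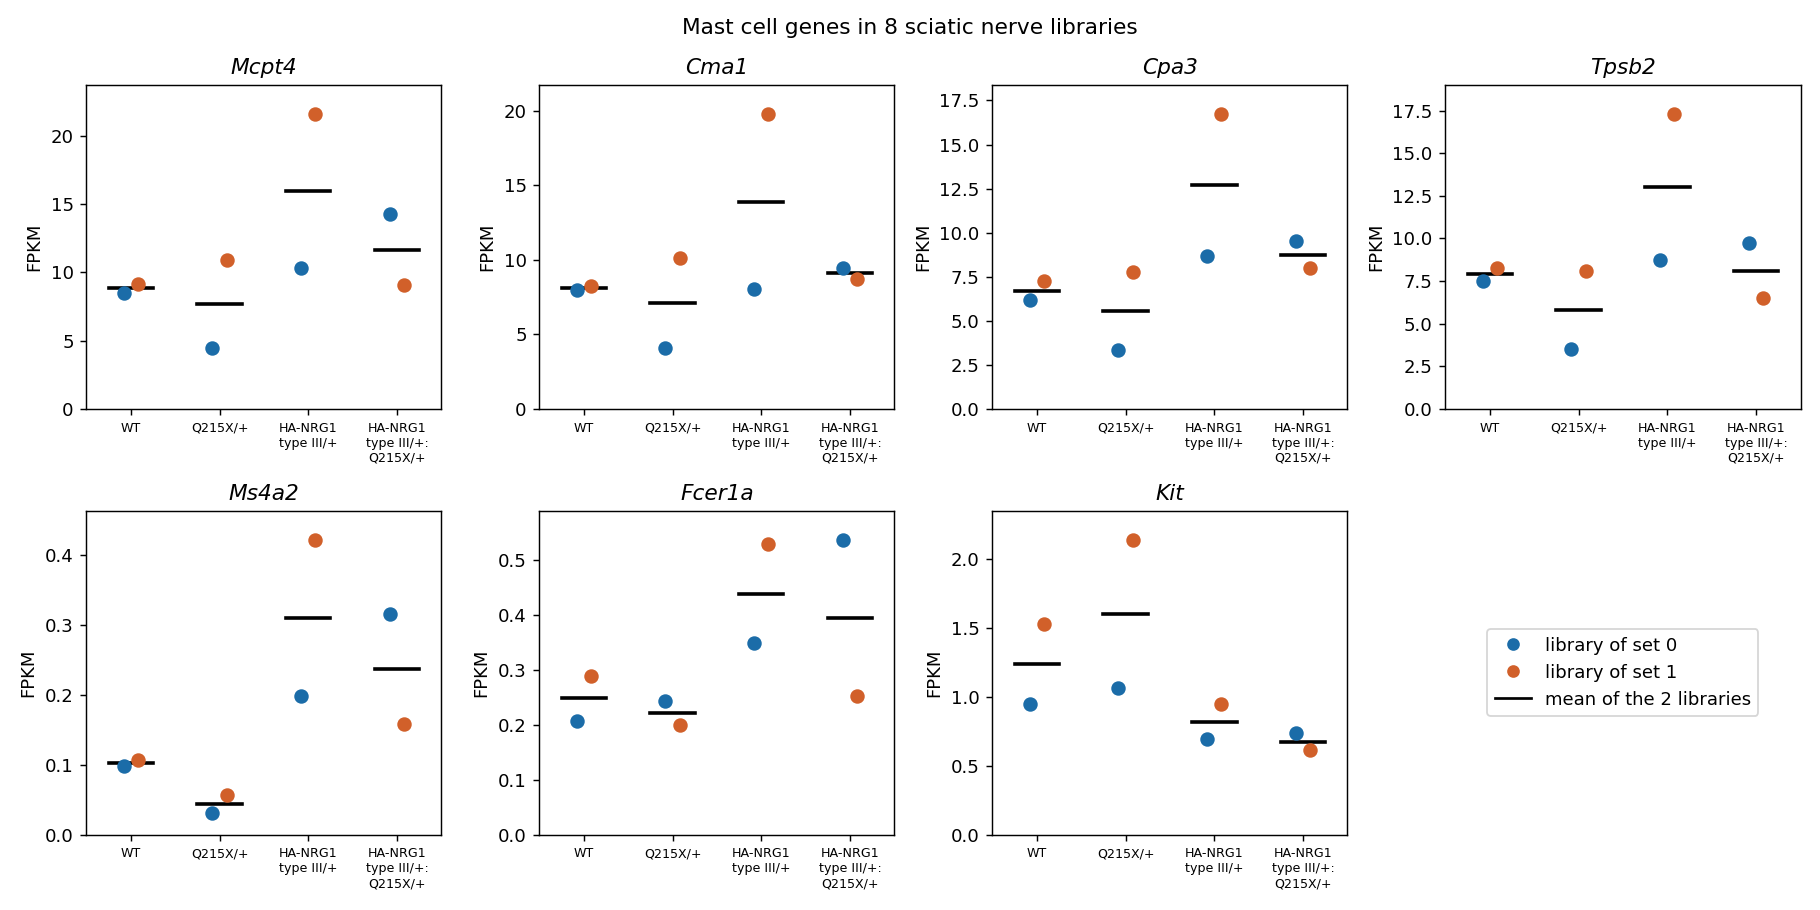
FPKM of each of the 7 mast cell genes in the 8 sciatic nerve libraries, by genotype on the horizontal axis, with each point a library (blue for set 0, orange for set 1) and each line the mean of 2 libraries; vertical axes start at 0 and differ between panels. Set 1 of HA-NRG1 type III/+ stands highest for Mcpt4, Cma1, Cpa3, Tpsb2 and Ms4a2, and the Kit panel runs the other way.

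Ordered by group mean, 6 of the 7 genes ran in 1 sequence, with HA-NRG1 type III/+ highest, then HA-NRG1 type III/+:Q215X/+, WT and Q215X/+. For Mcpt4 the means were 16.0 ± 7.94, 11.7 ± 3.65, 8.83 ± 0.442 and 7.66 ± 4.57 FPKM in that order (SD, n = 2 each). For Ms4a2 they were 0.311 ± 0.157, 0.237 ± 0.111, 0.103 ± 0.00582 and 0.0438 ± 0.0181 FPKM. Kit ran Q215X/+ first at 1.60 ± 0.760 FPKM, then WT at 1.23 ± 0.410, HA-NRG1 type III/+ at 0.817 ± 0.179 and HA-NRG1 type III/+:Q215X/+ at 0.675 ± 0.0904. For Mcpt4 the libraries of each genotype overlapped with those of its neighbours in the order. For Ms4a2 HA-NRG1 type III/+:Q215X/+ overlapped with HA-NRG1 type III/+, while WT lay between Q215X/+ and HA-NRG1 type III/+:Q215X/+ with no overlap on either side. The share of all genes without such overlap was not counted. In HA-NRG1 type III/+ against WT, also 2 libraries against 2, 15.5% of genes lay wholly higher. The 6 sequences are not 6 separate observations, since the genes were read in the same libraries.

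The 4 granule protease genes kept nearly fixed proportions while their level moved about. From lowest to highest library, Mcpt4 ranged 4.87-fold, Cma1 4.83-fold, Cpa3 5.03-fold and Tpsb2 4.89-fold, all 4 lowest in Q215X/+ set 0 and highest in HA-NRG1 type III/+ set 1. Over the same libraries the ratio of Mcpt4 to Cma1 moved only between 1.04 and 1.51, that of Mcpt4 to Cpa3 between 1.14 and 1.50, and that of Mcpt4 to Tpsb2 between 1.11 and 1.47. As a description over 8 libraries that share their depth and composition between genes, Pearson's r of Mcpt4 was 0.958 with Cma1, 0.980 with Cpa3 and 0.975 with Tpsb2. The tryptase copy Tpsab1, which is no member, followed less closely, with ratios of Mcpt4 to it from 3.06 to 8.18.

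Kit did not travel with the granule genes. The ratio of Mcpt4 to Kit ran from 4.18 in Q215X/+ set 0 to 22.9 in HA-NRG1 type III/+ set 1, and their r was -0.09. Summed over Mcpt4, Cma1, Cpa3 and Tpsb2, the granule level was 35.8 and 75.3 FPKM in HA-NRG1 type III/+, 43.0 and 32.3 in HA-NRG1 type III/+:Q215X/+, 30.2 and 32.9 in WT, and 15.4 and 36.9 in Q215X/+. Kit amounted to 3.13% and 4.63% of that sum in WT and to 6.89% and 5.78% in Q215X/+. In HA-NRG1 type III/+ it amounted to 1.93% and 1.25%, and in HA-NRG1 type III/+:Q215X/+ to 1.72% and 1.89%. All 4 carriers were thus below all 4 non-carriers in Kit relative to the granule genes. This ratio was formed after both sets of values were seen and was not tested.

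**Figure D2:**
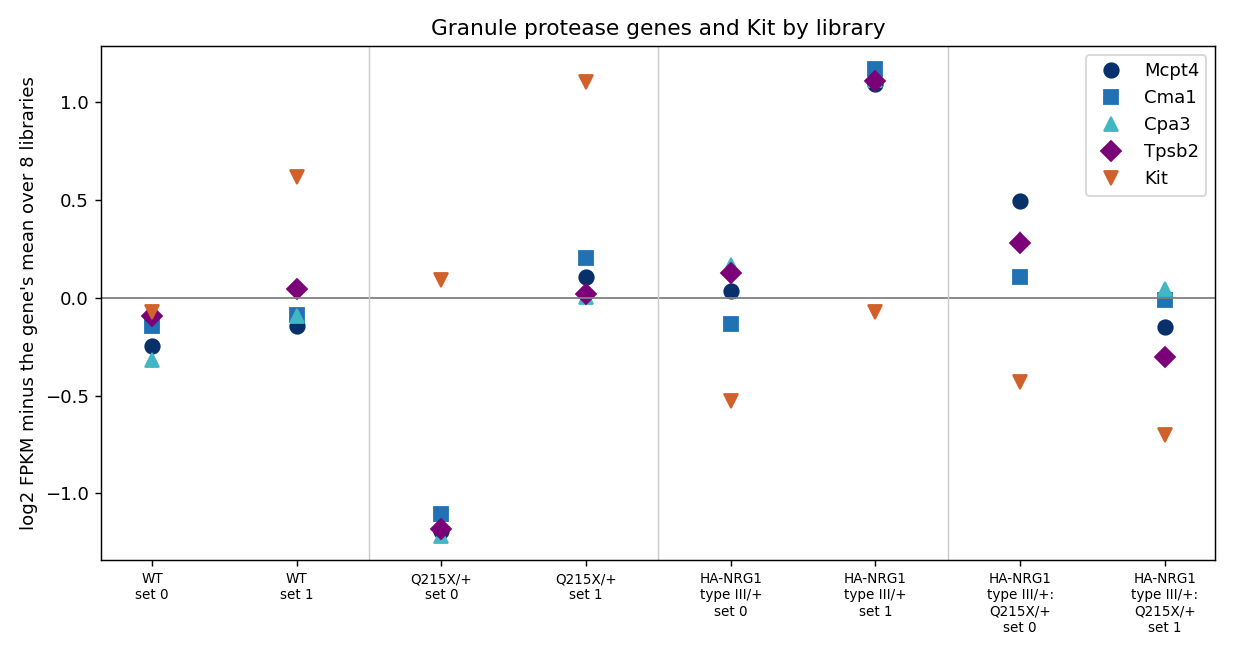
log2 FPKM of Mcpt4, Cma1, Cpa3, Tpsb2 and Kit in each library, minus that gene's mean over the 8 libraries; each symbol is a gene, and vertical lines part the genotypes. The 4 granule genes lie close together in each library, from the low Q215X/+ library of set 0 to the high set 1 library of HA-NRG1 type III/+, while Kit is highest in Q215X/+ set 1.

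The libraries at both ends of the granule range also stood at the ends of another measure. Genes of short RNA (symbols beginning with Mir, Snor, Rnu or Scarna) held 10.4% of total FPKM in HA-NRG1 type III/+ set 1 and 1.83% in Q215X/+ set 0, against 3.92% to 6.46% in the other 6 libraries. Total FPKM ran from 443733 to 530901, and relative depth, read from the steps between values up to 0.05 FPKM, from 0.728 to 1.09 of the WT library of set 0. Skeletal muscle genes summed to 724 FPKM in Q215X/+ set 1, where Kit was highest, and to 2.44 to 56.9 FPKM in the other 7 libraries. The part of these differences in the mast cell values was not tested. Sex is also not balanced: by Xist and Ddx3y, both WT and both HA-NRG1 type III/+:Q215X/+ libraries came from females, both Q215X/+ libraries from males, and HA-NRG1 type III/+ from a male in set 0 and a female in set 1.

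The first question of the design is what the transgene does in an otherwise normal nerve. Against WT, the HA-NRG1 type III/+ mean was 1.81-fold for Mcpt4, 1.71-fold for Cma1, 1.89-fold for Cpa3, 1.65-fold for Tpsb2, 3.01-fold for Ms4a2, 1.77-fold for Fcer1a and 0.662-fold for Kit. Within set 0 the same ratios were 1.22, 1.01, 1.40, 1.16, 2.01, 1.68 and 0.731, and within set 1 they were 2.36, 2.39, 2.31, 2.09, 3.93, 1.83 and 0.620. All 6 genes other than Kit were above 1 in both sets, and the granule genes were much nearer to 1 in set 0, where the transgenic library read as male and the WT library as female. With 2 libraries against 2, 5 members lay wholly higher in HA-NRG1 type III/+ (Cma1 overlapped), where 15.5% of 18870 genes did. Kit was the 1 member wholly lower, where 14.6% of genes were.

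None of the 7 genes passed the test of that comparison. The test was limma on log2(FPKM + 1) over the 18870 genes with a value above 0 somewhere, with Benjamini-Hochberg adjustment over all of them and a threshold of 0.05. In HA-NRG1 type III/+ against WT it called 0% of genes, members included, with 1405 genes at an unadjusted p under 0.05. On genes averaging at least 1 FPKM it called 4 genes up and 4 down, 0 of them among the 5 members tested there, Ms4a2 and Fcer1a being below that level. The median log2 difference of the 7 members was 0.59, with an SD of 0.58 between sets, and that of all genes was 0. Without HA-NRG1 type III/+ set 1 the members' median was 0.12, and without HA-NRG1 type III/+ set 0 or with a term for sex 1.04. Leaving out set 0 and the term for sex gave the same estimate, since sex varied only within HA-NRG1 type III/+. Ms4a2, with a log2 difference of 0.24 (SE 0.093), was the 1 member with an unadjusted p under 0.05, at an adjusted p of 0.636 by limma. Cpa3 had the largest difference on the log2(FPKM + 1) scale, 0.77 (SE 0.41), at an adjusted p of 0.836 by limma, while by fold of means Ms4a2 was first.

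The second question is what the transgene does in the mutant nerve. There the HA-NRG1 type III/+:Q215X/+ libraries read as female and the Q215X/+ libraries as male. In this comparison sex and transgene therefore cannot be told apart without the HA-NRG1 type III/+ libraries. Against Q215X/+, the HA-NRG1 type III/+:Q215X/+ mean was 1.52-fold for Mcpt4, 1.28-fold for Cma1, 1.58-fold for Cpa3, 1.39-fold for Tpsb2, 5.41-fold for Ms4a2, 1.78-fold for Fcer1a and 0.423-fold for Kit. The sets disagreed for the granule genes. Within set 0 the ratios were 3.22 for Mcpt4, 2.31 for Cma1, 2.86 for Cpa3 and 2.75 for Tpsb2, while within set 1 they were 0.835, 0.863, 1.03 and 0.801. The set 0 ratios have the low Q215X/+ library in their denominator. Ms4a2 was higher in both sets, 10.2-fold and 2.81-fold, as was Fcer1a at 2.21-fold and 1.26-fold, and Kit was lower in both, at 0.698 and 0.286 of the Q215X/+ value.

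In this comparison 3 members lay wholly higher in HA-NRG1 type III/+:Q215X/+ and 1 wholly lower, where 15.4% and 14.2% of genes did. limma called 0.0159% of all genes and 0 of the 7 members. At an unadjusted p under 0.05 stood Ms4a2 (log2 difference 0.24, SE 0.093) and Kit (log2 difference -0.60, SE 0.23), with adjusted p of 0.637 and 0.626 by limma. The median over the members was 0.42, with an SD of 0.87 between sets. It was 0.06 without Q215X/+ set 0, 0.98 without Q215X/+ set 1, 0.22 without HA-NRG1 type III/+:Q215X/+ set 0, and -0.36 with a term for sex, which turns its direction. On this scale Ms4a2 moves little, its level being far below the added 1 FPKM. With 0.01 FPKM added instead, its transgene effect averaged over both backgrounds was 1.79 rather than 0.24, and it still did not pass.

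**Figure D3:**
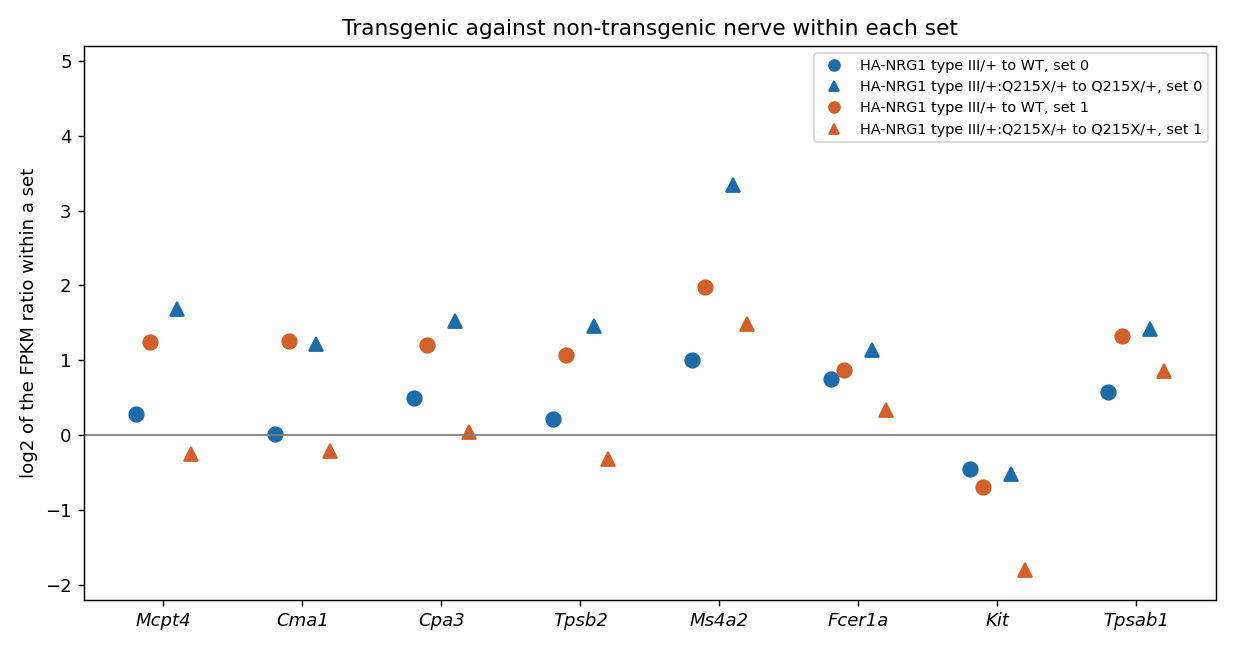
log2 of the FPKM ratio of a carrier of the transgene to its non-carrier counterpart within a set, for the 7 mast cell genes and the tryptase copy Tpsab1; circles are HA-NRG1 type III/+ to WT, triangles HA-NRG1 type III/+:Q215X/+ to Q215X/+, blue set 0 and orange set 1. The 4 points are all above 0 for Cpa3, Ms4a2, Fcer1a and Tpsab1 and all below 0 for Kit, and they fall on both sides of 0 for Mcpt4, Cma1 and Tpsb2.

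Averaged over both backgrounds, the transgene effect drew on all 8 libraries, 4 carriers against 4 non-carriers. Of the members, 3 (Cpa3, Ms4a2 and Fcer1a) were higher in all 4 within-set pairs and Kit was lower in all 4, where 12.7% and 13.7% of all genes were. Without any overlap, Cpa3 and Ms4a2 lay above and Kit below, where 4.4% and 4.1% of genes did. The log2 difference was 0.71 (SE 0.29) for Cpa3, 0.67 (SE 0.34) for Mcpt4, 0.53 (SE 0.31) for Tpsb2 and 0.50 (SE 0.35) for Cma1. For the receptor genes it was 0.24 (SE 0.065) for Ms4a2, 0.19 (SE 0.077) for Fcer1a and -0.45 (SE 0.16) for Kit.

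Of these 7 genes, 0 passed, while limma called 0.313% of all genes. Ms4a2, Kit and Fcer1a had an unadjusted p under 0.05, with adjusted p of 0.229, 0.381 and 0.451 by limma. The granule genes ranged from an adjusted p of 0.461 for Cpa3 to 0.750 for Cma1. The median over the members was 0.50 with an SD of 0.12 between sets, and the median of all genes was 0.00. That SD was below the 0.58 of HA-NRG1 type III/+ against WT and the 0.87 of HA-NRG1 type III/+:Q215X/+ against Q215X/+, which the effect averages. For the granule genes the first comparison was larger in set 1 and the second in set 0, so set differences partly cancelled. The members' median was 0.20 with a term for sex or without HA-NRG1 type III/+ set 1, 0.23 without Q215X/+ set 0, 0.76 without HA-NRG1 type III/+ set 0 and 0.79 without Q215X/+ set 1. Sex varied only within HA-NRG1 type III/+, so the term for sex and leaving out that genotype's set 1 gave the same estimate. With the set as a replicate block the same test called 3.17% of genes, and on genes averaging at least 1 FPKM with the block 7.1%. With the block alone 0 of 7 members were called, the lowest adjusted p by limma being 0.143, for Kit. With block and filter 0 of the 5 members tested were called, Ms4a2 and Fcer1a being left out by the filter, and the lowest was 0.0938, again for Kit. A value that misses the threshold does not show that a gene kept its level. For the granule genes the SE was 0.29 to 0.35 log2 units.

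The P0 mutation alone gave ratios to WT that differed by set. For Mcpt4 the Q215X/+ library read 0.520 of WT in set 0 and 1.19 in set 1, for Cma1 0.514 and 1.22, for Cpa3 0.536 and 1.07, and for Tpsb2 0.470 and 0.983. Fcer1a read 1.17 and 0.694. Ms4a2 read 0.314 and 0.528, lower in both sets, and Kit 1.12 and 1.40, higher in both. limma called 0 members and 0.0106% of all genes, with no member at an unadjusted p under 0.05, and the members' median was -0.28 with an SD of 0.58 between sets. That median turned to 0.19 without Q215X/+ set 0 and to 0.44 with a term for sex, and was -0.83 without Q215X/+ set 1. The Q215X/+ libraries read as male and the WT libraries as female, so in this comparison sex and genotype cannot be told apart without the HA-NRG1 type III/+ libraries.

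With the transgene present, adding the mutation gave HA-NRG1 type III/+:Q215X/+ to HA-NRG1 type III/+ ratios above 1 in set 0 and below 1 in set 1 for all 7 genes. In set 0 they ran from 1.07 for Kit to 1.58 for Ms4a2, and in set 1 from 0.376 for Tpsb2 to 0.647 for Kit, with the high HA-NRG1 type III/+ library in the denominator. Here limma called 0% of genes, 505 of them and 0 members having an unadjusted p under 0.05, and the members' median was -0.37 with an SD of 0.79 between sets. It was 0.04 without HA-NRG1 type III/+ set 1, -0.86 without HA-NRG1 type III/+ set 0 and -0.07 without HA-NRG1 type III/+:Q215X/+ set 1. The double HA-NRG1 type III/+:Q215X/+ nerve against WT gave means of 1.32-fold for Mcpt4, 1.12-fold for Cma1, 1.30-fold for Cpa3, 1.03-fold for Tpsb2, 2.30-fold for Ms4a2, 1.59-fold for Fcer1a and 0.547-fold for Kit. That comparison is of females only. limma called 0.0636% of genes in it, 0 of them members and 0 members at an unadjusted p under 0.05, with a median of 0.15 over the members and an SD of 0.24 between sets, or 0.04 without HA-NRG1 type III/+:Q215X/+ set 0 and 0.27 without HA-NRG1 type III/+:Q215X/+ set 1. The interaction, the transgene effect in Q215X/+ minus that in WT, called 0.0053% of genes and 0 members, 0 at an unadjusted p under 0.05. Its median over the members was -0.11 with an SD of 1.36 between sets, and it turned to 0.33 without HA-NRG1 type III/+ set 1, 0.40 without Q215X/+ set 1 and 0.09 without HA-NRG1 type III/+:Q215X/+ set 1. A difference between the backgrounds was not detectable here. These comparisons share libraries with each other.

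Other genes of mast cells were read from lists of the same roles, for the transgene effect averaged over both backgrounds. Of 9 further granule genes, 2 (Mcpt1 and Mcpt9) were at 0 in every library, 5 of the other 7 were above 0 in effect and 2 below, and 0 passed. Tpsab1, the tryptase copy beside Tpsb2, read 3.38 and 4.91 FPKM in HA-NRG1 type III/+, 3.51 and 2.41 in HA-NRG1 type III/+:Q215X/+, 2.26 and 1.96 in WT, and 1.32 and 1.33 in Q215X/+. Its 4 carriers lay above its 4 non-carriers, with a log2 difference of 0.73 (SE 0.14) and an adjusted p of 0.110 by limma. It passed only with block and filter together, at an adjusted p of 0.0289 by limma. Ctsg, for the protease cathepsin G that neutrophils also make, read 0.261 and 0.516 FPKM in HA-NRG1 type III/+, 0.161 and 0.578 in HA-NRG1 type III/+:Q215X/+, 0.0238 and 0.0497 in WT, and 0 and 0.0460 in Q215X/+. Its carriers too lay above the others, at an adjusted p of 0.225 by limma. Srgn, for the core of the granule proteoglycan in many blood cells, was at 60.9 to 79.9 FPKM by group mean with a log2 difference of -0.20 (SE 0.23).

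Of 8 genes for histamine, serotonin and lipid mediators, 6 were above 0 in effect, 0 passed, and the median log2 difference was 0.06. Hpgds, which makes prostaglandin D in mast cells and macrophages, read 2.72 and 3.46 FPKM in HA-NRG1 type III/+, 2.81 and 3.10 in HA-NRG1 type III/+:Q215X/+, 2.07 and 1.64 in WT, and 2.43 and 1.99 in Q215X/+, carriers above non-carriers. Hdc, which makes histamine, averaged 0.613 ± 0.175 FPKM in HA-NRG1 type III/+, 0.414 ± 0.0562 in HA-NRG1 type III/+:Q215X/+, 0.527 ± 0.0506 in WT, and 0.313 ± 0.0214 in Q215X/+ (SD, n = 2 each). Of 7 other surface receptors, 6 were above 0 and 0 passed, with a median of 0.18. Mrgprb1, from the receptor family by which basic peptides trigger mast cells, was at 0.270 to 0.673 FPKM in the carriers and 0.0993 to 0.260 in the non-carriers. It was the only gene of this list without overlap. Mrgprb2, of the same family, was at 0.109 to 0.569 FPKM in the carriers and 0.0490 to 0.250 in the non-carriers. Cd63, the most abundant of the list, averaged 0.979-fold in the carriers.

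Genes of signalling below the IgE receptor had 10 of 12 above 0, with 0 passing and a median of 0.16. Most are shared with other immune cells, Fyn and Fcer1g being the most abundant. Carriers lay above non-carriers without overlap for Lcp2, Btk, Gab2 and Inpp5d, where 4.4% of all genes did. Of 6 transcription factor genes of the lineage, 4 were above 0, 0 passed and the median was 0.02. Gata2, which drives mast cell genes but is also made by endothelium and other cells, averaged 1.43 ± 0.078 FPKM in HA-NRG1 type III/+, 1.39 ± 0.087 in HA-NRG1 type III/+:Q215X/+, 2.16 ± 0.12 in WT, and 1.63 ± 0.25 in Q215X/+ (SD, n = 2 each). Of 7 growth factor and alarmin genes, Il3 and Il9 were at 0 in every library, the other 5 were above 0 in effect and 0 passed. Kitl, which encodes stem cell factor, the ligand of Kit, read 16.3 and 17.4 FPKM in HA-NRG1 type III/+, 17.7 and 17.0 in HA-NRG1 type III/+:Q215X/+, 17.1 and 14.5 in WT, and 14.4 and 13.0 in Q215X/+. Its log2 difference was 0.21 (SE 0.070), at an adjusted p of 0.342 by limma, opposite in sign to that of its receptor.

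**Figure D4:**
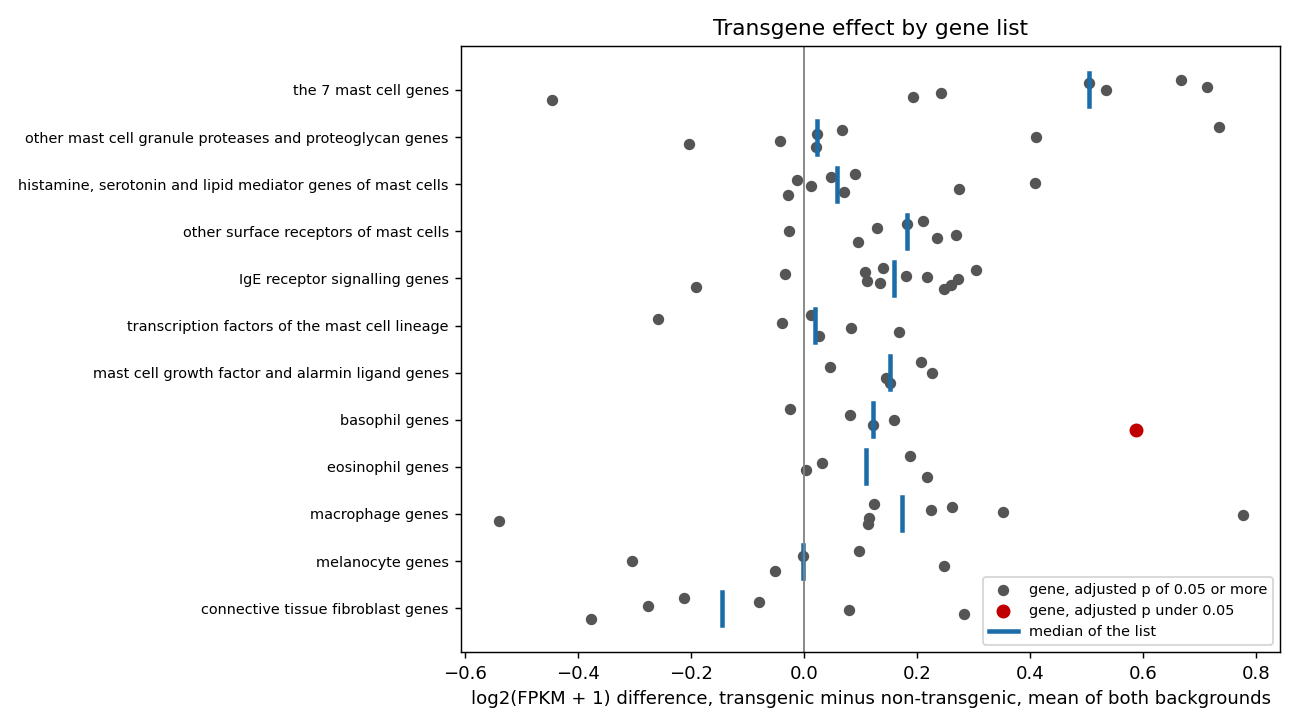
Transgene effect averaged over both backgrounds, on the log2(FPKM + 1) scale, for the 7 mast cell genes and 11 lists of related or neighbouring cell types; each point is a gene, each blue bar the median of its list, and red marks an adjusted p under 0.05 by limma. The 7 genes have a median of 0.50, and the 1 red point is Il3ra in the basophil list.

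Markers of other cells that could carry these transcripts were read in the same libraries. Basophils share several of the 7 genes, and their own protease gene Mcpt8 was at 0 in 7 of 8 libraries and at 0.0690 FPKM in Q215X/+ set 0. The other scarce genes of their list had higher means in the carriers. Cd200r3 was at 0.0747 to 0.244 FPKM in the carriers and 0 to 0.0679 in the non-carriers, without overlap. Il4 and Prss34 averaged 3.54-fold and 3.21-fold in the carriers, with overlap. All are at levels where a value can rest on few fragments. Il3ra, for the interleukin 3 receptor alpha chain that basophils, endothelium and other cells make, was the 1 gene of the basophil list that passed, 4 of its 5 genes being above 0 in effect. It read 8.98 and 8.90 FPKM in HA-NRG1 type III/+, 8.60 and 7.86 in HA-NRG1 type III/+:Q215X/+, 6.28 and 6.20 in WT, and 4.87 and 4.37 in Q215X/+, with carriers above non-carriers. It rose by 0.59 (SE 0.060) on the log2 scale, at an adjusted p of 0.0412 by limma. The call was lost with a term for sex (adjusted p 0.136 by limma), with upper quartile scaling (0.0507) and with any library left out except Q215X/+ set 0 (0.116 to 0.157, and 0.0447 without Q215X/+ set 0). The summed basophil list ran from 9.14 to 9.54 FPKM in HA-NRG1 type III/+, 8.18 to 8.98 in HA-NRG1 type III/+:Q215X/+, 6.25 to 6.49 in WT, and 4.41 to 5.01 in Q215X/+, nearly all of it Il3ra.

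Melanocytes also make Kit. Their genes Tyr and Mlana were at 0 in 7 of 8 libraries each, and the list summed to 2.12 to 2.21 FPKM in HA-NRG1 type III/+, 1.47 to 2.01 in HA-NRG1 type III/+:Q215X/+, 1.69 to 1.73 in WT, and 1.69 to 1.91 in Q215X/+, most of it Pmel. Of its 5 genes, 2 were above 0 in effect and 0 passed. Tyrp1, for a pigment enzyme, was at 0.0639 to 0.295 FPKM in the carriers and 0.429 to 0.496 in the non-carriers, the same direction as Kit, with an adjusted p of 0.0515 by limma. Dct, for another pigment enzyme, ran the opposite way, at 0.0778 to 0.138 FPKM in the carriers and 0 to 0.0754 in the non-carriers. The log2 difference of Pmel was 0.25 (SE 0.087), also opposite in sign to Kit. Red blood cell genes shared the sign of Kit's averaged effect. These genes summed to 344 and 291 FPKM in HA-NRG1 type III/+, 320.5 and 1027 in HA-NRG1 type III/+:Q215X/+, 914 and 1004 in WT, and 3068 and 6271 in Q215X/+, all 6 measured genes below 0 in effect. Their sum, like Kit, was highest in Q215X/+ set 1. In HA-NRG1 type III/+:Q215X/+ set 1, where Kit was lowest of all libraries, the red cell sum was above that of either WT library. Alas2, the heme synthesis enzyme of red cell precursors, was the 1 of the 6 that passed, and it fell by 2.43 on the log2 scale (SE 0.27, adjusted p 0.0460 by limma). That call was lost with a term for sex (adjusted p 0.136 by limma) and with each library left out in turn (0.0823 to 0.155). The part of these cells in the Kit values was not tested.

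Macrophage genes had 7 of 8 above 0 with a median of 0.17 and 0 passing, and summed to 214 to 258 FPKM in HA-NRG1 type III/+, 240 to 245 in HA-NRG1 type III/+:Q215X/+, 207 to 212 in WT, and 214 to 227 in Q215X/+. Of the macrophage genes, Cx3cr1 was at 9.28 to 16.4 FPKM in the carriers and 6.25 to 8.58 in the non-carriers, without overlap. Cd163 ran the other way, at 7.95 to 9.99 against 10.8 to 15.4 FPKM. Eosinophil genes had 4 of 4 above 0 with 0 passing, at summed levels of 0.198 to 0.818 FPKM over all libraries. Among these, Siglec5 and Ccr3 had carriers above non-carriers without overlap. The connective tissue list, for the sheath where most nerve mast cells sit, had 2 of 6 above 0 with a median of -0.15. Its sum ran from 2959 to 3946 FPKM, most of it Dcn and Col1a1. Dcn was higher in set 1 in 4 of 4 genotypes and Col1a1 in 0 of 4, and such opposite moves narrow the range of a sum. Single genes of the list ranged up to 2.96-fold over the libraries, for Ly6a. In this list Dpt was lowest in Q215X/+ set 0 at 35.1 FPKM, the library where the granule genes were also lowest, and highest in Q215X/+ set 1 at 79.8. Clec3b had the same lowest and highest libraries, at 93.9 and 161 FPKM, while the other 4 genes of the list were lowest in other libraries. Adipocyte genes, with 3 of 4 above 0 and 0 passing, also stood at both ends in Q215X/+, summing to 195 FPKM in set 0 and 712 in set 1, against 298 to 517 in the other 6 libraries. The part of sheath tissue and fat in the mast cell values was not tested.

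Among 12525 other genes averaging at least 1 FPKM, those with a profile over the 8 libraries most like the mean of the 7 members were Iba57 (Pearson's r 0.961), Adamtsl5 (0.955), Clec14a (0.935), Kdm8 (0.926), Vps16 (0.908), Tmem41a (0.899), Bbs12 (0.896), Sgsm3 (0.890), Larp6 (0.889) and Zfp764 (0.889). None is on the mast cell lists, and each was highest in HA-NRG1 type III/+ set 1 and lowest in Q215X/+ set 0. List genes averaging under 1 FPKM, such as Mrgprb1, Mrgprb2, Ctsg and Hdc, could not appear here. The members' mean profile also includes Kit, which did not follow the granule genes. With 8 libraries and so many genes compared, such correlations are a description of a profile with 2 extreme libraries. Iba57 spanned only 1.06 to 1.57 FPKM and Adamtsl5 50.6 to 64.7, against the 4.87-fold range of Mcpt4.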

How the data were processed

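RNA sequencing libraries were made by TruSeq preparation from poly A selected RNA of sciatic nerve, per the labels' protocols. The authors deposited 1 FPKM value (sequenced fragments relative to transcript length and depth) per gene and library. The submitters' processing notes list TopHat2 2.0.9, Cufflinks 2.2.0 and mm10. The role of each, the gene annotation, the use of strand and any filtering are absent from the sources used here. Each line holds an empty field after the symbol that the header lacks, so names and values were matched in their order. Column name stems gave the genotype. The transgene's stem is an abbreviation, assigned because every other genotype had a stem of its own.

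The 18870 genes not at 0 in every library were fitted as log2(FPKM + 1) with limma 3.58.1 in R 4.3.3, as 4 group means over 8 libraries with a trend on the mean and 4 residual degrees of freedom. Differences understate the change of genes with low values. A gene passed where its Benjamini-Hochberg adjusted p was under 0.05. An SD between sets is the spread of a median over set 0 and set 1. The script was run on simulated data, where the check was that planted differences were estimated near their size. A first noise model, under which no planted change was recovered, had been replaced. How often changes are called was not part of that check. No 2 libraries held the same values.

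No label ties a column ending to a replicate number. Libraries with the same ending deviated together, with correlations across genes of 0.118 to 0.304 in the 6 pairs of genotypes, so the ending was also fitted as a block. Other alternatives were a pseudocount of 0.1 or 0.01, a filter at 1 FPKM, upper quartile scaling, no trend, terms for sex, and each library left out. The filter with the block was chosen after seeing the data. The members and lists were chosen with earlier results of these data known. All 7 members are named, and of each list the genes that passed and some of the 4 with the highest mean. Hpgds, Hdc, Mrgprb1, Mrgprb2, Mcpt8, Tyr, Dct, Mcpt1, Mcpt9, Il3, Il9, Lcp2, Btk, Gab2, Inpp5d, Cx3cr1, Cd163 and Ly6a were chosen after their values were seen. In the lists, Siglecf, Adgre1 and Hbb-bs were read under older symbols (Siglec5, Emr1, Beta-s), and Trac and Hbb-bt were not matched. Of the lists not described in the report, T and NK cell genes had 4 of 6 above 0 in transgene effect, B cell 2 of 4, neutrophil 2 of 5, Schwann cell 1 of 7, perineurial 2 of 4 and muscle 0 of 4, with 0 passing.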

Additional observations from a re-analysis of the deposited data

How the results depend on the processing

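None of the mast cell genes tested passed in any comparison under any alternative run, the lowest adjusted p by limma being 0.0938. All 7 were tested except under the filter at 1 FPKM, which left 5, without Ms4a2 and Fcer1a. The median log2 transgene effect over the 7 genes, averaged over both backgrounds, was 0.5045 and the same with the replicate block. It was 0.7361 with a pseudocount of 0.01, 0.2039 with a term for sex, and 0.2931 with sex and the replicate block. Leaving out 1 library at a time gave 0.2039 to 0.786: 0.7609 without HA-NRG1 type III/+ set 0, 0.2039 without HA-NRG1 type III/+ set 1, 0.2341 without Q215X/+ set 0 and 0.786 without Q215X/+ set 1. With a genotype left at 1 library, that library is assumed to vary like the others. The term for sex and leaving out HA-NRG1 type III/+ set 1 gave the same estimate, 0.2039. Of 119 medians under alternatives, 9 turned sign. With a term for sex, which rests on the 2 HA-NRG1 type III/+ libraries alone, Q215X/+ against WT went from -0.2776 to 0.4415 (0.2353 with the block) and HA-NRG1 type III/+:Q215X/+ against Q215X/+ from 0.4237 to -0.3645 (-0.1555 with the block). The other 5 turned with 1 library left out: Q215X/+ against WT (0.1873 without Q215X/+ set 0), HA-NRG1 type III/+:Q215X/+ against HA-NRG1 type III/+ (0.04084 without HA-NRG1 type III/+ set 1), and the interaction, in 3 cases, from -0.1076 to 0.09086, 0.3259 and 0.396. The SD between sets of the medians that turned was 0.58 to 1.36, and most of the 9 moved by less than it. Of the 119, 8 moved by more than the SD between sets of their comparison. Most of these 8 were medians of the averaged effect, whose SD between sets was 0.12 because set differences of the 2 backgrounds partly cancelled. The 8 include every value given above for that effect except the one with the replicate block alone. The replicate block raised the number of genes called for the averaged effect from 59 to 598, and changed no member's call. Single genes were followed for the averaged effect only: the 7 members, Tpsab1, Ctsg, Il3ra and Alas2, each under each alternative. Of these results, 160 kept their side of the threshold and direction, 20 lost a call (Il3ra or Alas2), 1 gained one (Tpsab1, with filter and block) and 0 reversed. Directions of single genes in the other comparisons were not counted. Values under 1 FPKM may rest on few fragments, and how many is unknown from FPKM alone.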
